A study of Mus musculus with 66 samples.

Results

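The Id, Twist and E protein genes are 9 genes of the helix-loop-helix family: Id1, Id2, Id3 and Id4, Twist1 and Twist2, and the E protein genes Tcf3, Tcf4 and Tcf12. They are defined by name and are 9 of the 22489 genes in a table of mRNA-Seq levels from mouse C2C12 cells. The table holds 20 libraries, 1 for each of 10 lines in the growth state and 1 after differentiation. C2C12 is an established mouse myoblast line whose cells leave the cell cycle and fuse into myotubes when serum is lowered. The study asked whether different variants of histone H3, when overexpressed, alter gene expression during this process.

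The wild-type (WT) cells carried no tagged H3 gene. The other 9 lines were Tet-On C2C12 cells, each with a cDNA for an H3 variant tagged with GFP at its N-terminus under a doxycycline-inducible promoter. In 3 lines the variant was of the H3.1/H3.2-type in sequence (H3.1, H3.2 and H3t), and in the other 6 it was of the H3.3-type (H3.3 itself and H3mm7, H3mm11, H3mm12, H3mm13 and H3mm16). The transgenes had been inserted by a transposon, and each line was selected in doxycycline and G418 and then sorted for GFP, so a line is a single derivation and WT cells went through neither step. Growth-state cells were kept in 20% fetal bovine serum. Differentiated cells were moved to 2% horse serum at confluence and collected 48 h later. Columns named H3mmT in the table were taken as the H3t line, because no other line name was left for them.

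Helix-loop-helix proteins act in pairs. The muscle factors MyoD, Myf5, myogenin and Myf6 bind DNA at E-box motifs (CANNTG) together with an E protein, which is encoded by Tcf3 (E12 and E47, also called E2A), Tcf4 (E2-2) or Tcf12 (HEB). Id proteins can pair with E proteins but lack the basic region that contacts DNA, so they hold E proteins away from the muscle factors, and Twist proteins also hinder these factors in myoblasts. The symbols Tcf3 and Tcf4 are shared in older usage with the Wnt pathway genes Tcf7l1 and Tcf7l2; the table lists those under their own symbols, so Tcf3 and Tcf4 were read as the E protein genes.

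On mm9, the genome build of the study, Id1 spans chromosome 2, 152561987 to 152563146 on the plus strand, and Id2 spans chromosome 12, 25778666 to 25780957 on the minus strand. Id3 lies on chromosome 4, 135699412 to 135701670, and Id4 on chromosome 13, 48356796 to 48359405, both on the plus strand. Twist1 is on chromosome 12, 34642536 to 34644682, and Twist2 on chromosome 1, 93698038 to 93744605, again on the plus strand. Tcf3 covers chromosome 10, 79872259 to 79896392, and Tcf12 covers chromosome 9, 71692059 to 71959626, both on the minus strand. No locus is given for Tcf4, whose chromosome was left out.

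Promoter windows are shown for 4 genes, so that those lower after differentiation (Id2, Id3 and Twist2) can be set beside Tcf12, which was not. Each window is the 250 bases before a RefSeq transcript start on the gene's own strand (GRCm38.p6), with any E-box CANNTG in capitals. The windows are chr12:25096093-25096342 on the minus strand for Id2, chr4:136143572-136143821 on the plus strand for Id3, chr1:91801211-91801460 on the plus strand for Twist2 and chr9:72111820-72112069 on the minus strand for the first of 3 Tcf12 starts.
Id2: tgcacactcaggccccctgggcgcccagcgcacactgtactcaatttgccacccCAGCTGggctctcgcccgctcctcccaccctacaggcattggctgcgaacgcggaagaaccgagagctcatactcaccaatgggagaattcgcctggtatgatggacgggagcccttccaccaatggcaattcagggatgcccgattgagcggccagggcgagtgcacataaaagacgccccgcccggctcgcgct
Id3: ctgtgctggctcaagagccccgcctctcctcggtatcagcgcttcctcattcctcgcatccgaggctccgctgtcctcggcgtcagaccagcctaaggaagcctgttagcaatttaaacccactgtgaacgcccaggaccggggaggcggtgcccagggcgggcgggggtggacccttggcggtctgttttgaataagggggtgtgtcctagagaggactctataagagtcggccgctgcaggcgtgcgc
Twist2: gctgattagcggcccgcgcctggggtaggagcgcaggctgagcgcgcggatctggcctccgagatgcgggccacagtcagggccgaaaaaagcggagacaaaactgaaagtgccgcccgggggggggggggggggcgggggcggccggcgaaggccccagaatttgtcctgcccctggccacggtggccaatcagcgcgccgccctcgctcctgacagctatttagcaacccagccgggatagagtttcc
Tcf12: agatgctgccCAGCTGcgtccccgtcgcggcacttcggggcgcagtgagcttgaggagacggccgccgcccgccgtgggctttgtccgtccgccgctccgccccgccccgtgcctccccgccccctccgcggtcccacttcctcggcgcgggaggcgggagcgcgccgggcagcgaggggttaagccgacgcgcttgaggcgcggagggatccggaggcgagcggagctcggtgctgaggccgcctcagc

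The background was 32851 promoter windows of the same length, without those on the chromosome of Tcf4. Of these, 66.2% held at least 1 CANNTG, which reads as an E-box on either strand. CAGCTG, a form of E-box that also counts among the CANNTG matches, was in 13%. Id2 had 1 E-box, CAGCTG at position -196 from the start. The first Tcf12 window also had a single E-box, CAGCTG at -240, and of its other windows 1 had an E-box at -149 and 1 had none. Tcf3 had 1 E-box, at -54. No CANNTG lay in the windows of Id3, Id4, Twist1 or Twist2, which says only that these letters are not in these 250 bases. Windows were used for 7 of the 9 genes. Id1 had none, and the chromosome of Tcf4 was left out before the search.

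Levels are FPKM, fragments scaled by transcript length in kilobases and by the mapped reads of the library, so genes can be set side by side. Sequencing depth is unknown, because the table gives no counts. The WT libraries stood apart: Gapdh was listed at 0.361 FPKM in growth and 0.263 after differentiation, against 783 to 2094 FPKM in the 18 GFP-H3 libraries, and their summed FPKM were the lowest in each state. The myoblast label was checked with Myod1, Myf5, Des, Cdh15 and Itga7, of which all 5 averaged at least 1 FPKM in both states. Their summed level was 305 to 783 FPKM in growth and 737 to 2002 FPKM after differentiation. Des (1.40 on the log2 scale), Cdh15 (1.49) and Itga7 (2.34) were called higher after differentiation. Summed levels of 5 myotube markers were 3.55 to 148 FPKM in growth and 2229 to 11424 FPKM after differentiation. Cells left undifferentiated and less mRNA per cell cannot be told apart in such bulk libraries. Of the markers of other cell types, 3 of 6 for fibroblasts averaged at least 1 FPKM in each state, and their summed level was 139 to 279 FPKM in growth and 105 to 621 FPKM after differentiation. For osteoblasts 1 of 5 (Runx2) reached that level, with sums of 8.31 to 14.8 and 2.70 to 7.56 FPKM, and for adipocytes 2 of 5 did in growth and 1 of 5 afterwards, with sums of 15.3 to 35.0 and 9.06 to 19.2 FPKM. Sums were 0.225 to 7.66 and 0.0179 to 1.91 FPKM for 3 endothelial markers and 0.875 to 2.26 and 0.287 to 3.92 FPKM for 4 macrophage markers. Between the states, 3 of these markers of other cell types were called, where 8.87% of all tested genes were called higher and 8.41% lower. Dcn rose from 2.03 to 74.5 FPKM (4.50 on the log2 scale). Runx2 (from 10.5 to 3.97 FPKM, -1.20) and Cdh5 (from 2.53 to 0.624 FPKM, -1.02) fell. Col3a1 (170 and 276 FPKM) and Pparg (21.3 and 12.9 FPKM), named after their values were seen, were uncalled and made up most of the fibroblast and adipocyte sums in growth. The macrophage gene Emr1 was listed at 0 in all 20 libraries. The part of these markers in the results was not tested.

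In the growth state the Id genes dominated. Id3 had the highest mean, 379 ± 99.6 FPKM (SD, n = 10 lines), followed by Id1 with 210 ± 70.3 FPKM and Id2 with 102 ± 29.8 FPKM. Tcf3 was the leading E protein gene at 59.6 ± 14.6 FPKM. Tcf12 at 26.8 ± 4.50 FPKM and Twist2 at 24.4 ± 3.93 FPKM came next, and Tcf4 was at 9.36 ± 1.95 FPKM. Id4 averaged 0.102 ± 0.0678 FPKM and Twist1 was listed at 0 in all 20 libraries. Between neighbours in this order, the ranges of Tcf3 and Tcf12, of Twist2 and Tcf4, and of Tcf4 and Id4 did not overlap, and the others did. Id3 was nonetheless above Id1 in 10 of 10 growth libraries and Id1 above Id2 in 9, whereas Tcf12 was above Twist2 in only 6.

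After differentiation the order changed. Id3 (44.9 ± 45.3 FPKM) and Tcf12 (44.2 ± 8.27 FPKM) had almost equal means, and Tcf12 was the higher of them in 6 of 10 lines. Tcf3 (29.3 ± 10.3 FPKM), Id1 (22.6 ± 9.84 FPKM) and Tcf4 (19.6 ± 6.10 FPKM) followed with overlapping ranges. Id2 (6.51 ± 2.83 FPKM) and Twist2 (5.41 ± 2.03 FPKM) also overlapped. Only Twist2 and the nearly silent Id4 (0.0115 ± 0.0156 FPKM) were separated from each other among neighbours with any signal.

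The first comparison asked how each gene changed as the cells left growth for differentiation. Id1, Id2, Id3, Twist2 and Tcf3 fell, in 10 of 10 lines each. Tcf4 and Tcf12 were higher in most lines but their differences stayed under the size required for a call. A gene was called when limma's adjusted p was below 0.05 and the difference on the log2(FPKM + 1) scale was at least 1. Of the 9 genes, 7 had a mean of at least 1 FPKM and were tested, and 5 were called lower and 0 higher, where 8.41% of the 10954 tested genes were called lower and 8.87% higher. The median difference over all tested genes was 0.038 on the log2 scale.

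**Figure D1:**
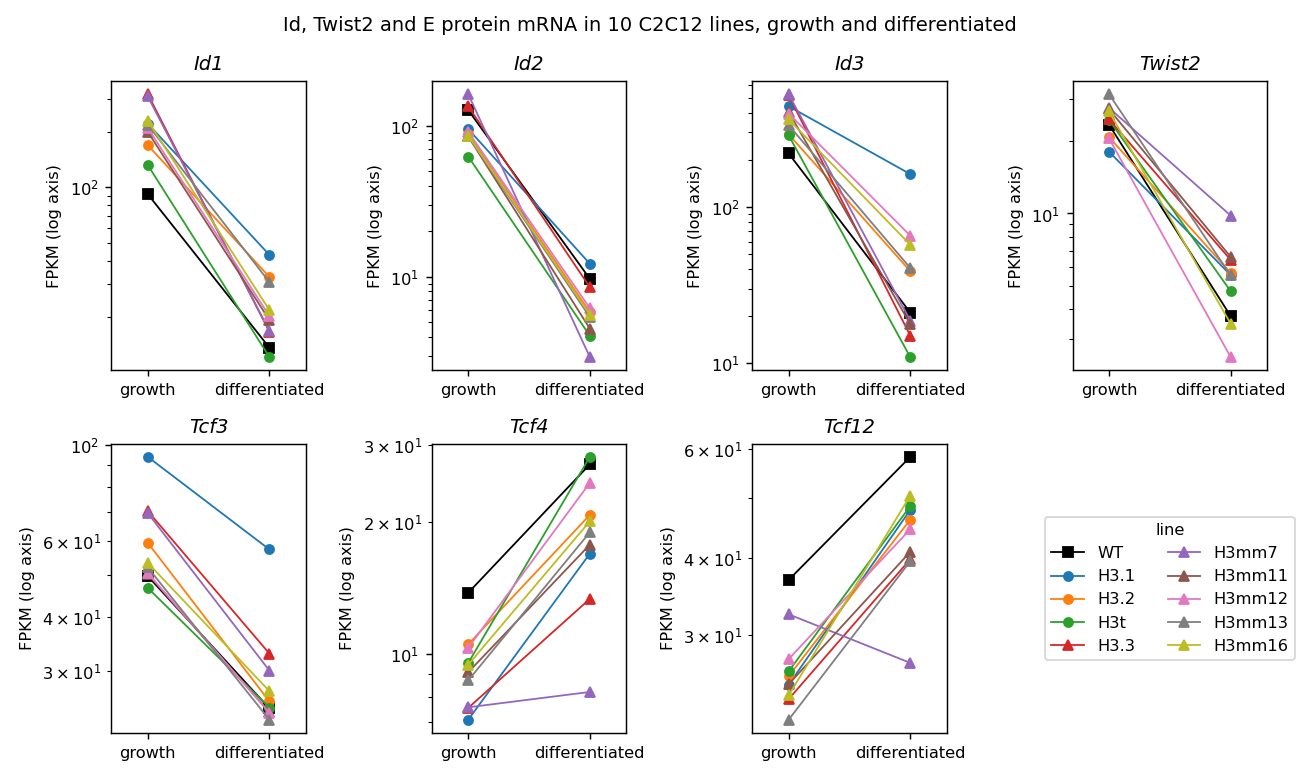
FPKM (log axis) of the 7 tested genes in the growth and differentiated libraries of 10 lines; lines join the 2 libraries of a cell line, squares are WT, circles H3.1/H3.2-type and triangles H3.3-type lines. Id1, Id2, Id3, Twist2 and Tcf3 descend in all 10 lines, and the H3mm7 line is the exception to the upward slope of Tcf12.

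Among the Id genes, which encode the inhibitors of E proteins, Id2 had the largest mean difference, and its fall was the largest of the 3 tested Id genes in 7 of 10 lines. In H3t, H3.3 and H3mm11 it was Id3 that fell most. No test compared the genes. Id2 ranged from 62.7 to 162 FPKM in growth with a median of 90.0 FPKM, and from 2.94 to 12.2 FPKM after differentiation with a median of 5.72 FPKM. The highest differentiated library therefore lay well under the lowest growth library. The difference was -3.81 on the log2(FPKM + 1) scale (SE 0.20, limma adjusted p = 1.08e-12), and the ratio of the growth mean to the differentiated mean was 15.7. The per-line ratio of Id2 ran from 7.81 in the H3.1 line to 55.1 in the H3mm7 line, which had both the highest Id2 in growth and the lowest afterwards.

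Id1 ranged from 91.9 (WT) to 320 FPKM (H3.3) in growth, with a median of 214 FPKM, and from 12.1 (H3t) to 43.1 FPKM (H3.1) after differentiation, with a median of 19.6 FPKM. Here too no differentiated library reached the growth range. The fall was -3.18 on the log2 scale (SE 0.23, limma adjusted p = 1.63e-10). Across lines the ratio of growth to differentiated Id1 was lowest in H3.1 (5.14) and H3.2 (5.17) and highest in H3mm7 (18.6) and H3.3 (19.3).

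Id3 was the most variable of the 9 genes after differentiation. In growth it ranged from 220 (WT) to 527 FPKM (H3mm7) with a median of 380 FPKM, and after differentiation from 10.98 (H3t) to 162 FPKM (H3.1) with a median of 30.0 FPKM. The ranges did not overlap, although the H3.1 line came nearest to the growth level. The difference was -3.46 (SE 0.36, limma adjusted p = 4.94e-08). The SD of Id3 over lines on the log2 scale was 0.40 in growth and 1.15 after differentiation, where the median SD of all tested genes was 0.24 and 0.34. Id3 was 34.4 times higher in growth than after differentiation in the H3.3 line and 2.72 times higher in the H3.1 line.

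Id4, the remaining inhibitor, was listed above 0 in 9 growth libraries, up to 0.257 FPKM, and in 4 differentiated libraries, up to 0.0364 FPKM. It was too low to be tested.

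Of the Twist genes, which encode factors that oppose muscle differentiation, only Twist2 had signal. It ranged from 18.1 (H3.1) to 31.3 FPKM (H3mm13) in growth with a median of 24.5 FPKM, and from 2.53 (H3mm12) to 9.80 FPKM (H3mm7) after differentiation with a median of 5.54 FPKM. The states did not overlap. Twist2 fell by 2.04 on the log2 scale (SE 0.15, limma adjusted p = 3.15e-10), a smaller difference than those of the Id genes, and the per-line ratio ran from 2.80 in H3mm7 to 8.10 in H3mm12. Id1, Id2, Id3 and Twist2 were thus the 4 genes with separate ranges, a pattern with lower differentiated values that 8.74% of all tested genes showed, and 8.85% showed the reverse.

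The E protein genes, whose products are the partners of MyoD and myogenin, did not move together. Tcf3 ranged from 46.7 (H3t) to 94.0 FPKM (H3.1) in growth with a median of 52.8 FPKM, and from 23.1 (H3mm13) to 57.4 FPKM (H3.1) after differentiation with a median of 25.1 FPKM. The ranges overlapped only through the H3.1 line: its differentiated value lay above 6 growth values, and the next highest differentiated value was 32.9 FPKM (H3.3). Tcf3 fell by 1.02 (SE 0.15, limma adjusted p = 6.30e-06), just past the size threshold, and the per-line ratio of growth to differentiated levels stayed between 1.64 (H3.1) and 2.33 (H3.2).

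Tcf4 ranged from 7.08 (H3.1) to 13.8 FPKM (WT) in growth with a median of 9.27 FPKM, and from 8.20 (H3mm7) to 28.2 FPKM (H3t) after differentiation with a median of 19.5 FPKM. Each of the 10 lines had more Tcf4 after differentiation, although the H3mm7 line gained little, from 7.56 to 8.20 FPKM. The difference was 0.94 (SE 0.17, limma adjusted p = 5.82e-05), which passed on p but not on size. Without the H3mm7 libraries it was 1.04 and was called.

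Tcf12 ranged from 21.9 (H3mm13) to 36.8 FPKM (WT) in growth with a median of 25.4 FPKM, and from 27.0 (H3mm7) to 58.2 FPKM (WT) after differentiation with a median of 45.3 FPKM. It was higher after differentiation in 9 of 10 lines and lower in H3mm7, where it went from 32.4 to 27.0 FPKM. The difference was 0.69 (SE 0.12, limma adjusted p = 2.49e-05), again under the size required for a call.

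**Figure D2:**
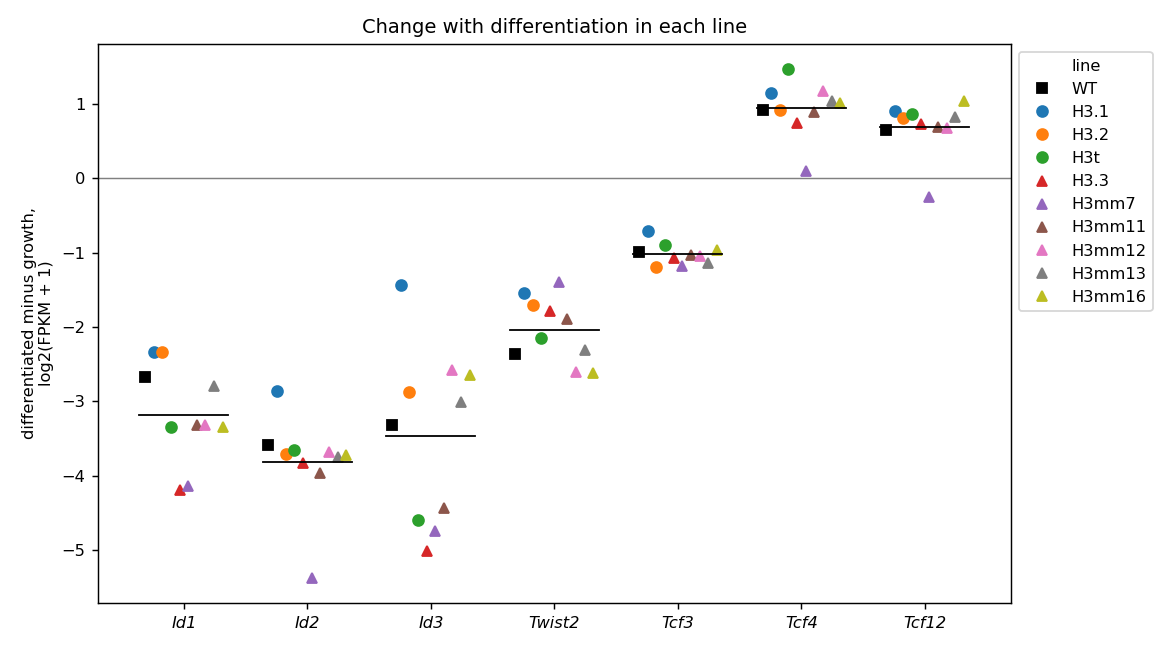
Difference of each line's differentiated and growth library on the log2(FPKM + 1) scale for the 7 tested genes; each symbol is a line, shaped as WT (square), H3.1/H3.2-type (circle) or H3.3-type (triangle), and the bar is the mean of 10 lines. Id3 spreads from -5.01 (H3.3) to -1.44 (H3.1), whereas Tcf3 stays between -1.19 and -0.70.

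The lines served as the replicates of each state, with 1 library per line and state, so the spread between cultures of a line was not measured. Without the WT libraries, the same 5 genes were called, with differences from -3.84 (Id2) to -1.02 (Tcf3).

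The summed levels show how the balance of inhibitor and partner mRNA shifted. The sum of the 4 Id genes was 691 ± 185 FPKM in growth and 74.1 ± 55.4 FPKM after differentiation (SD, n = 10), while the sum of the 3 E protein genes was 95.8 ± 14.0 and 93.2 ± 15.9 FPKM. The ratio of Id to E protein mRNA ranged from 4.38 (WT) to 9.57 (H3.3) in growth, with a mean of 7.23 ± 1.66, and from 0.268 (H3t) to 1.78 (H3.1) after differentiation, with a mean of 0.765 ± 0.435. H3.1 was the only line in which Id mRNA still exceeded E protein mRNA after differentiation, and H3mm12 was close to equality at 0.988. No test was made on the ratio, since it combines the genes tested above, and mRNA levels do not give the amounts of protein.

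**Figure D3:**
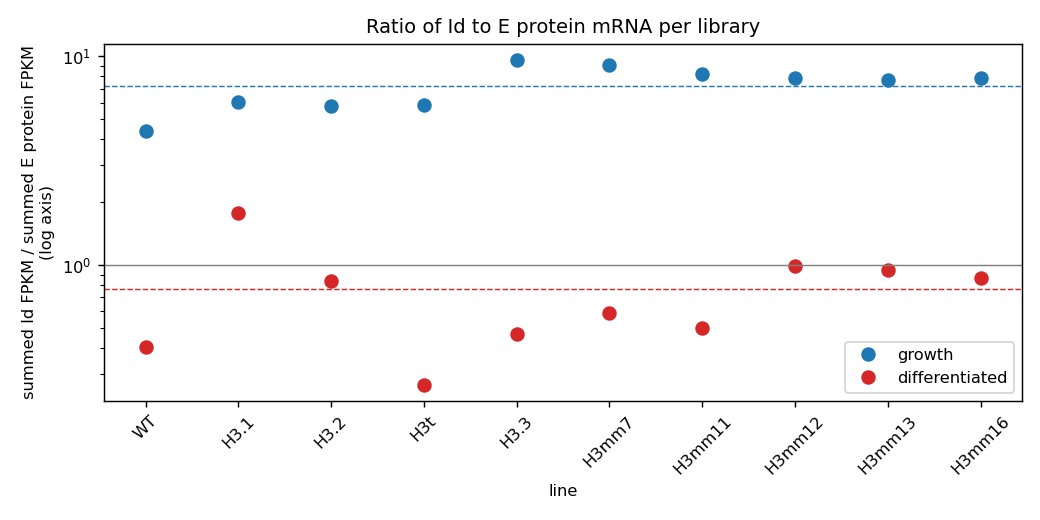
Ratio of summed Id FPKM to summed E protein FPKM (log axis) in each of 20 libraries; dashed lines are the means of 10 lines, and the solid line marks equal sums. All growth libraries lie at 4.38 or above, and 9 of 10 differentiated libraries lie below equality.

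The E protein sum was similar in the states on average but not in every line: it went from 110 to 65.3 FPKM in H3mm7 and from 82.5 to 101 FPKM in H3t. Its composition differed more. Tcf3 made up 61.7 ± 6.88% of E protein mRNA in growth and 31.7 ± 8.87% after differentiation. Tcf12 went from 28.3 ± 4.67% to 47.5 ± 4.31% and Tcf4 from 10.0 ± 2.53% to 20.9 ± 5.25%. Tcf3 was the largest component in every growth library. Tcf12 was the largest in 8 differentiated libraries, and Tcf3 remained so in H3.1 (47.0% against 39.1%) and H3mm7 (46.0% against 41.4%). Among Id mRNA, Id3 took 54.9 ± 3.24% in growth and 53.4 ± 13.2% after differentiation, so only its spread widened.

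**Figure D4:**
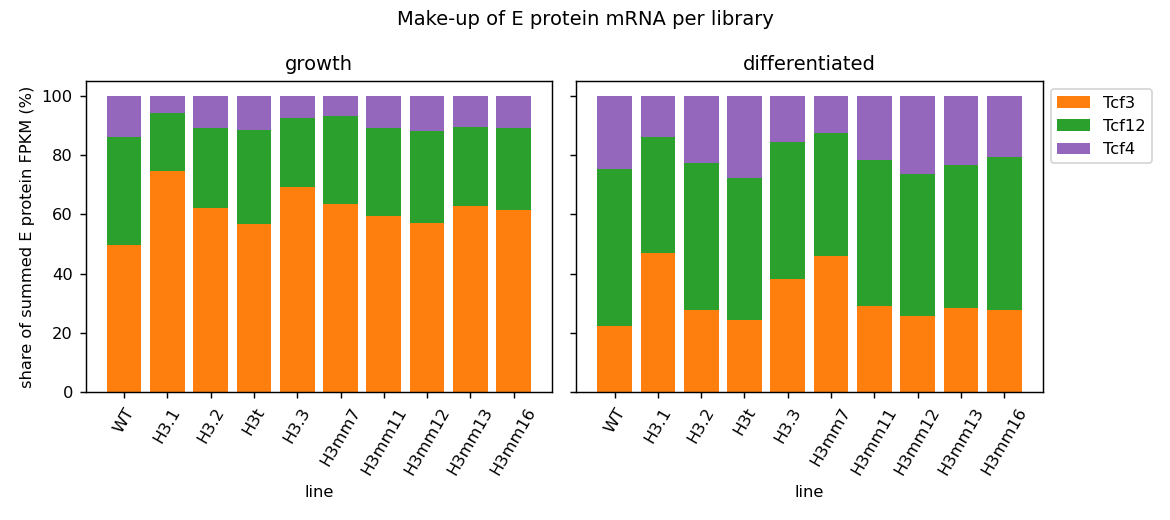
Shares of Tcf3, Tcf12 and Tcf4 in the summed E protein FPKM (%) of each library, growth on the left and differentiated on the right. Tcf3 leads in all 10 growth libraries, and Tcf12 in 8 of the 10 differentiated ones.

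The second comparison asked whether the type of overexpressed H3 was accompanied by different levels of these genes, first in growth. None of the 7 tested genes was called between the 6 H3.3-type and the 3 H3.1/H3.2-type lines, a comparison in which 0.21% of 10931 tested genes were called. Id1 was 200 to 320 FPKM in H3.3-type lines and 132 to 221 FPKM in H3.1/H3.2-type lines. The difference was 0.51 (SE 0.30, limma adjusted p = 0.63), with overlapping ranges. Id2 was 85.1 to 162 FPKM against 62.7 to 95.3 FPKM, a difference of 0.36 (SE 0.30, limma adjusted p = 0.75). The differences of Id3 (0.32), Twist2 (0.30), Tcf3 (-0.16), Tcf4 (-0.031) and Tcf12 (-0.0061) were smaller than that of Id2, and each gene's ranges overlapped.

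After differentiation, again 0 of 7 genes were called between the types, where 0.768% of all tested genes were. None of the 7 had an unadjusted p below 0.05 in limma, where 2197 of 10931 tested genes did. Id3 spanned 15.1 to 65.7 FPKM in the H3.3-type lines and 10.98 to 162 FPKM in the H3.1/H3.2-type lines, because H3t and H3.1 held the lowest and the highest values of all. Its difference was -0.44 with an SE of 0.59 (limma adjusted p = 0.72). Tcf4 was lower by 0.38 in H3.3-type lines (SE 0.24, adjusted p = 0.40) and Tcf12 by 0.25 (SE 0.15, adjusted p = 0.37), and neither was called. Without the H3.1 line the differences of Id1, Id2, Id3, Tcf3 and Twist2 changed sign, and without the H3t line that of Id3 was -1.36, that of Id1 -0.85 and that of Id2 -0.59, all of them uncalled.

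The interaction of type and state tested whether the change with differentiation itself differed between the types. With limma, 0 genes were called in the whole table (0% of 10931), and 999 had an unadjusted p below 0.05. This fit took the growth and differentiated libraries of a line as independent. With the line as a block, 3 genes were called and 1771 had an unadjusted p below 0.05 in limma. The Id1 fall was -3.52 ± 0.54 (SD, n = 6) in the H3.3-type and -2.67 ± 0.59 (SD, n = 3) in the H3.1/H3.2-type lines, a difference of -0.85 (SE 0.42, limma adjusted p = 0.57). For Id2 the falls were -4.05 and -3.41 and for Id3 -3.73 and -2.97, with adjusted p of 0.70 and 0.86 in limma. The differences of Id3 and Id2 between types depended on single lines. That of Id3 (-0.77) was -1.58 without H3t and -0.0014 without H3.1. That of Id2 (-0.64) was -0.37 without H3.1 and -0.38 without H3mm7. The Id1 difference stayed between -1.18 and -0.68 when any line was left out.

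Single lines departed further than the types did. After differentiation the H3.1 line had the most Id1 (43.1 FPKM), Id2 (12.2 FPKM), Id3 (162 FPKM) and Tcf3 (57.4 FPKM) of all 10 lines. The same line had the least Myod1 (1.61 FPKM) and Myog (0.106 FPKM) in growth, and its Myog of 333 FPKM after differentiation was above H3t alone. The H3t line had the least Id1 and Id3 but also the lowest Myog after differentiation (329 FPKM). The part of these lines' degree of differentiation in their Id levels was not tested. After differentiation the H3mm7 line combined the lowest Id2, Tcf4 and Tcf12 with the highest Twist2.

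The study grouped the H3.3, H3mm7 and H3mm11 lines by the profiles of these same differentiated libraries, so they are described here with no test. Twist2 was the only gene of the 9 whose values did not overlap with the other 6 GFP-H3 lines: 6.41, 9.80 and 6.60 FPKM in H3.3, H3mm7 and H3mm11 against 2.53 to 5.66 FPKM. In all, 10.3% of tested genes lay higher without overlap and 8.82% lower. Id3 was 15.1 to 18.8 FPKM in these 3 lines, and the other 6 spanned 10.98 (H3t) to 162 FPKM. Tcf4 was 8.20 to 17.8 FPKM against 16.9 to 28.2 FPKM and Tcf12 27.0 to 40.9 FPKM against 39.5 to 50.4 FPKM, with a narrow overlap in each.

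The WT cells were set beside the 9 GFP-H3 lines, again with no test since each state has 1 WT library. In growth WT had less Id1 (91.9 FPKM) and Id3 (220 FPKM) than any line, whose lowest values were 132 and 288 FPKM. WT had more Tcf4 (13.8 FPKM) and Tcf12 (36.8 FPKM) than any line in growth, and more Tcf12 (58.2 FPKM) after differentiation. Id2 and Twist2 lay within the lines' range in both states. As 48.4% of all tested genes in growth and 40% after differentiation put WT outside the range of the 9 lines, such positions are common in these libraries, and the near absence of Gapdh in WT stands beside them.

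Some of the genes varied together. Over the 18 GFP-H3 libraries, after subtracting the mean of each state, Pearson's r was 0.72 for Id1 and Id2, 0.78 for Id1 and Id3 and 0.63 for Id2 and Id3. Tcf4 and Tcf12 gave 0.68, whereas Twist2 gave -0.66 with Tcf4 and -0.60 with Tcf12. The differentiated H3mm7 library weighs on all 3 of these values. It had the lowest Tcf4 (8.20 FPKM) and Tcf12 (27.0 FPKM) and the highest Twist2 (9.80 FPKM) in that state. Tcf3 was nearer to Id2 (0.66) than to Tcf4 (-0.42) or Tcf12 (0.083). The differentiated H3.1 library had the highest Id1 (43.1 FPKM), Id2 (12.2 FPKM), Id3 (162 FPKM) and Tcf3 (57.4 FPKM) in that state. It weighs on the values of the Id pairs and of Tcf3 with Id2. The r without either of these libraries was not computed. The r values are descriptions, because each line gives 2 of the 18 points and all genes of a library share its normalization. By the same measure, among 10775 genes with signal in every library, the closest to each were H1fx, Itgb5 and Azi1 for Id1 (0.83 to 0.80), Mapk3, Pik3r2 and Nr1d1 for Id2 (0.88 to 0.87), Rilpl2, Tmem132a and Smim4 for Id3 (0.86 to 0.85) and Myd88, Adck5 and G6pdx for Twist2 (0.84 for each). For the E protein genes they were Llgl1, Lmf2 and Sec24b with Tcf3 (0.93 to 0.92), Reep3, Purb and Ift80 with Tcf4 (0.94 for each) and Nptn, Arhgap21 and Zeb2 with Tcf12 (0.88 to 0.81).

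Genes around this network were counted from lists made for this purpose. Bone morphogenetic proteins (BMPs) induce Id genes through the Smad proteins. Of 25 genes of this pathway 15 were tested, of which 5 were called lower after differentiation and 3 higher. Over all tested genes, 8.41% were called lower and 8.87% higher. The median difference of the 15 was -0.091. The inhibitory Smads fell, Smad6 from 9.48 ± 2.99 to 1.83 ± 0.792 FPKM (-1.88 on the log2 scale, limma adjusted p = 5.18e-09) and Smad7 from 13.7 to 5.79 FPKM (-1.17). Smad9, a receptor-activated Smad, fell from 2.93 to 0.379 FPKM (-1.50), lower in 10 of 10 lines. The more abundant receptor-activated Smad1 (10.1 to 9.48 FPKM, -0.091) and Smad5 (14.6 to 13.1 FPKM, -0.15) were uncalled. They are named after their values were seen. The BMP antagonist Grem1 also fell, from 56.1 to 21.4 FPKM (-1.45). The fifth was the antagonist Nog (-1.09), named after its value was seen. Chrd, another antagonist, rose from 0.833 to 6.997 FPKM (2.04), and so did the activin-binding Fst (1.96) and the receptor gene Acvr2a (1.03). Fst was uneven, with a median of 2.95 FPKM and a highest value of 82.9 FPKM after differentiation.

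Among the myogenic factors, Myog rose from 8.95 ± 7.07 to 648 ± 300 FPKM (6.34, limma adjusted p = 1.49e-10). Myod1 went from 39.0 to 52.7 FPKM (0.79, adjusted p = 0.17) and Myf5 from 43.8 to 46.6 FPKM (-0.053 on the log2 scale, adjusted p = 0.88) and neither was called, and Myf6 was under the level needed for a test. Of 17 other helix-loop-helix genes 8 were tested: Hes6 (1.74), Heyl (1.23) and Bhlhe41 (1.19) rose and 0 were called lower, with a median of 0.73. The shares over all tested genes were 8.87% called higher and 8.41% called lower. All 14 of 14 listed muscle genes known to be driven through E-boxes were called higher, where 8.87% of all tested genes were. Their median was 6.40, led by Mylpf (8.21), Tnni2 (7.94), Tnnt3 (7.69) and Ckm (7.51). This list shares Myog, Ckm, Acta1, Myh3 and Tnnt3 with the myotube markers and was chosen with earlier results of these data known. Its count is therefore no test of control through E-boxes. Of the 4 Wnt pathway genes Tcf7, Tcf7l1, Tcf7l2 and Lef1, whose symbols resemble the E protein genes, 0 were called by limma. In 2 of them the adjusted p was below 0.05 (Tcf7 at -0.39 and Lef1 at -0.59), as in 6419 of 10954 tested genes.

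**Figure D5:**
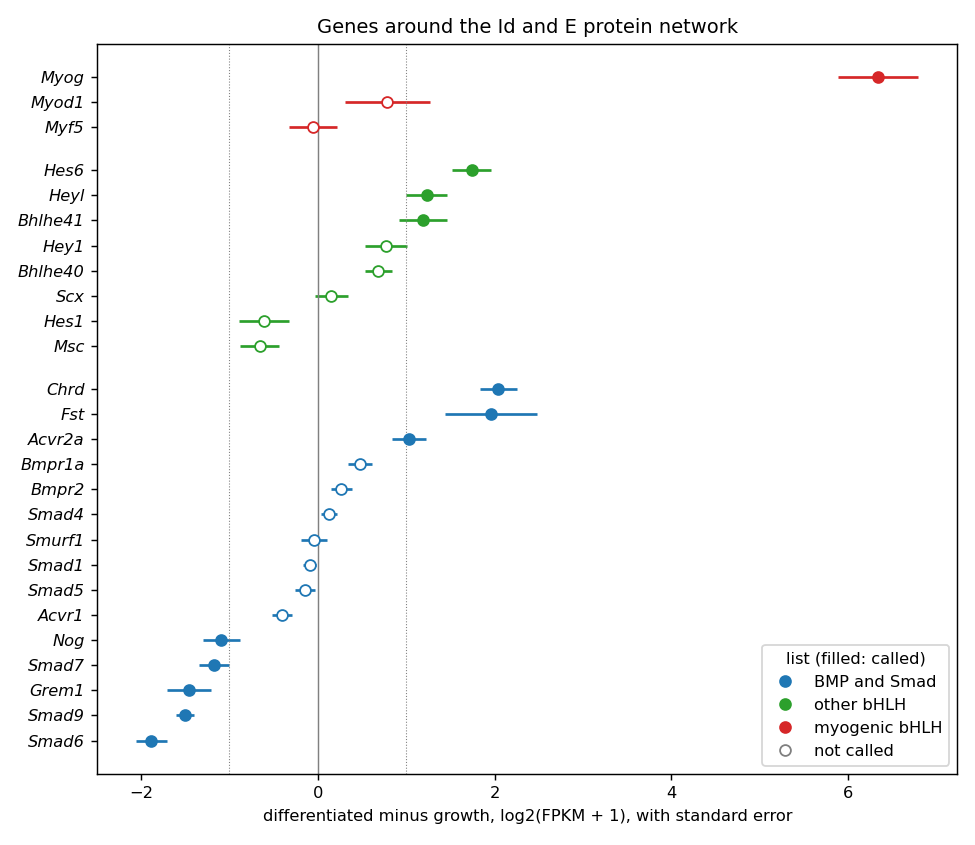
Difference between differentiated and growth libraries on the log2(FPKM + 1) scale, with its standard error, for the tested genes of 3 lists; filled points were called and dotted lines mark the size threshold of 1. Smad6 (-1.88) is lowest and Myog (6.34) highest.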

How the data were processed

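Per the labels, total RNA was reverse-transcribed with an oligo dT primer. According to the methods of the study and the submitters' processing notes, reads were mapped to mm9 with TopHat2 (2.0.8), and the authors deposited FPKM values per gene estimated by Cuffdiff of Cufflinks (2.0.1). The methods name this mapping for the GFP-H3 lines, and how WT reads were mapped is not given in the sources used here. Whether strand was used in counting is not given either. Depth is unknown, so no counting interval was computed. Other assays of the series were not used here.

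FPKM values were read as log2(FPKM + 1) and genes with a mean of at least 1 FPKM were kept. Differences were tested with limma 3.58.1 (trend and robust; R 4.3.3) and adjusted by Benjamini-Hochberg over all tested genes. WT and the 9 lines served as replicates of each state, and H3 types were compared in the 18 GFP-H3 libraries. Growth and differentiated libraries of a cell line form a pair by the labels, and their deviations from the state means correlated in every pair (r from 0.27 to 0.88 over 10954 genes). The main fits did not use this pairing. Named genes were the 9 members, the genes of each other list called between states (up to 4 per direction), the myogenic factors and the 3 closest genes per member. Members and lists were chosen with earlier results of these data known. Promoters came from RefSeq (GRCm38.p6), and windows on the chromosome of Tcf4 were left out. Alternatives were other pseudocounts, filters and scalings, limma without trend and robust, the line as a block, and leaving out each line.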

Additional observations from a re-analysis of the deposited data

Results flagged for a closer look

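The 8 genes with values above 0 and the ratio of Id to E protein mRNA were examined in each state for a library far from the other 9 (Dixon's test on the log2 scale, 18 groups of 10 libraries). Id4 was at 0 in 6 of 10 differentiated libraries, so the rate of about 1 in 20 groups that chance gives is approximate here. In 2 groups a library stood apart. Tcf3 in the differentiated H3.1 line, at 57.4 FPKM, lay above the other differentiated libraries, of which the highest was 32.9 FPKM, and its gap took 0.61 of the range on the log2(FPKM + 1) scale and 0.71 on the FPKM scale. Tcf12 in the differentiated H3mm7 line, at 27.0 FPKM, lay below the others, of which the lowest was 39.5 FPKM. Its gap took 0.49 of the range on the log2 scale and 0.40 on the FPKM scale, where it did not pass the critical value. The FPKM scale was added after seeing the data. Each rests on a single library.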

How the results depend on the processing

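Between growth and differentiation, Id1, Id2, Id3, Twist2 and Tcf3 were called lower under all 18 distinct alternatives, and the count of all called genes stayed within 1429 to 2348. Tcf4 passed the size threshold with a pseudocount of 0.1 (1.01) or 0.01 FPKM (1.01) and without H3mm7 (1.04). With the line as replicate block, no call of the 9 genes changed, and in the interaction 3 genes of the whole table were called. Over the alternatives, 0 of the 9 genes were called between types or in the interaction.

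Counts over all genes were less stable between types, and the cause was not tested. In growth, 23 genes were called, against 51 and 72 with a pseudocount of 0.1 and 0.01 FPKM and 14 both under a filter at 5 FPKM and with no filter. Leaving out a line gave 2 to 25: 2 without H3.1, 6 without H3mm16, 7 without H3t or H3mm13, 9 without H3.2, 12 without H3.3 and 14 without H3mm7. After differentiation, 84 genes became 134 with a pseudocount of 0.1 FPKM, 47 under a filter at 5 FPKM and 39 with no filter. Leaving out a line gave 3 to 293: 3 without H3.1, 17 without H3t, 25 without H3.3 or H3mm11, 46 without H3mm13, 47 without H3mm16, 170 without H3mm12 and 293 without H3.2. In the interaction, 0 became 1 under a filter at 5 FPKM, 2 with no filter, 5 with quantile normalization and 2 with upper quartile scaling, and 0 to 2 when a line was left out, 2 without H3.2.

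Type differences that turned in sign were uncalled, and not all of them were near 0. In growth, Tcf12 (-0.0061) became 0.011 with quantile normalization and 0.080 with upper quartile scaling, and 0.0096, 0.015, 0.036 and 0.011 without H3t, H3.3, H3mm13 and H3mm16. Tcf4 (-0.031) became 0.049 with upper quartile scaling and 0.076, 0.012, 0.0070 and 0.0061 without H3.2, H3t, H3.3 and H3mm7, and Tcf3 became 0.11 without H3.1. After differentiation, Twist2 (-0.00041) became 0.049 with quantile normalization and 0.027, 0.039, 0.17 and 0.098 without H3.1, H3.2, H3mm12 and H3mm16. Without H3.1, Id1 (-0.33) became 0.024, Id2 (-0.29) became 0.10 and Tcf3 (-0.30) became 0.083. Id3 went from -0.44 to 0.53, so its type difference had no stable direction.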
